A study of Bos taurus with 8 samples.

Results

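The S100 proteins are small EF-hand proteins that bind calcium, and most of their genes lie close together in 1 cluster of the mammalian genome. S100A8 and S100A9 pair to form calprotectin, a major cytosolic protein of neutrophils and monocytes that sequesters metal ions and, once released, acts on the lipopolysaccharide receptor TLR4. S100A12 is a further myeloid member and a ligand of the receptor AGER, whereas S100A4, S100A10, S100A11, S100A13 and S100A14 act mostly on cytoskeletal, membrane and secretory partners.

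The genes described here are S100A8, S100A9, S100A12, S100A4, S100A10, S100A11, S100A13 and S100A14, taken as every probe whose transcript accession belongs to 1 of these 8 symbols. They had 14 of the 43653 noncontrol probes of a 1-colour Agilent bovine array. Of these, 13 probes passed the filter on dim signal, so that 7 of the 8 genes were among the 15127 genes tested and S100A10 was not. All 8 genes lie on 1 chromosome in the RefSeq table of assembly ARS-UCD2.0, in the order S100A13, S100A14, S100A4, S100A8, S100A12, S100A9, S100A11 and S100A10. The array was annotated on an older assembly, so no positions are given.

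Total RNA came from peripheral blood mononuclear cells, the blood fraction of lymphocytes and monocytes, of lame crossbred cows (4 arrays), normal crossbred cows (2 arrays) and normal Tharparkar cows (2 arrays). Tharparkar is an Indian zebu breed. The breeds behind the cross, the ages of the cows, the grade of lameness and the number of cows behind an RNA sample are not given in the sources used here. RNA was run in technical duplicate according to the labels' protocols. Gene values correlated at 0.995 between the lame R1 arrays, at 0.981 between the lame R2 arrays and at 0.995 to 0.997 within each normal group, against 0.931 to 0.970 between all other pairs of arrays. The arrays were therefore read as 4 RNA samples: lame R1 and lame R2 with 2 arrays each, 1 normal crossbred and 1 normal Tharparkar. Below, n is the number of arrays: 4 for lame cows, from 2 RNA samples, and 2 for each normal group, from 1 RNA sample. Because duplicates of the same RNA count as observations, the p-values understate the uncertainty about cows, and a difference between conditions or breeds cannot be told apart from a difference between these RNA samples. Between 52.8% and 61.5% of probes were well above background on 7 arrays and 70.9% on lame R2_2, whose median raw signal was 192.5 against 74 to 102 on the others.

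A level below is the log2 of a probe's processed signal relative to the 75th percentile of its array, so that 0 is the signal at that percentile and 1 unit is a 2-fold difference. Levels of different probes are not comparable with each other. A gene was called where limma's adjusted p over all 15127 genes was under 0.05. Because the arrays hold bulk RNA, fewer cells of a type and less RNA per cell cannot be told apart in any of the values below.

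Among the 7 tested genes the widest differences were those of S100A13 and S100A14, 2 neighbouring genes whose signal was higher in crossbred than in Tharparkar cells. S100A13 takes part in the export of FGF1 and interleukin-1 alpha from human cells by a route that bypasses the classical secretory pathway. Its probe, A_73_118996, had levels of 4.28 and 4.01 on the lame R1 arrays and 3.32 and 3.12 on the lame R2 arrays, 4.70 and 4.54 in normal crossbred cows, and -3.73 and -3.06 in normal Tharparkar cows. Both Tharparkar arrays were far below all 6 crossbred arrays, and lame R2 was the lower of the lame samples. The probe was still marked well above background on both Tharparkar arrays, at intensities of 16.1 and 25.1 against 3038 to 6496 on the crossbred arrays. Normal crossbred exceeded normal Tharparkar by 8.02 on the log2 scale, a 259-fold difference (SE 0.42, adjusted p = 0.000129), and lame crossbred exceeded normal Tharparkar by 7.08, a 135-fold difference (SE 0.36, adjusted p = 8.7e-05). The size of these differences depends on how the dim Tharparkar signal is treated: with normexp background correction, which adds an offset, they were 5.61 and 4.68, and both remained called. S100A13 had only this 1 probe, so no second reading of it was available. Whether a sequence difference between the breeds touches the probes of S100A13 or S100A14 was not tested.

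Within the crossbred cows, S100A13 was lower on all 4 lame arrays than on both normal arrays, with a mean of 3.68 ± 0.55 against 4.62 ± 0.11 (SD, n = 4 and 2). The log2 fold change of -0.94 (SE 0.36, 95% interval -1.79 to -0.09) was not called (adjusted p = 0.155). With only the lame R2 arrays in the lame group it was -1.40, and with only the lame R1 arrays -0.48. In these refits the residual spread is between duplicates of the same RNA only.

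S100A14, known in humans mainly from epithelia, where it acts in cell motility, was the one member called in all 3 comparisons. Its brighter probe, A_73_121289, had levels of -2.64 and -2.53 on the lame R1 arrays and -2.83 and -2.01 on the lame R2 arrays, -0.21 and -0.26 in normal crossbred cows, and -6.46 and -6.37 in normal Tharparkar cows. The 3 groups did not overlap: normal crossbred was highest, lame crossbred intermediate and Tharparkar lowest. It was well above background on all 6 crossbred arrays and on neither Tharparkar array, so only a bound can be given against Tharparkar. On the scale used here, normal crossbred was at least 16.8-fold higher than normal Tharparkar and lame crossbred at least 3.48-fold higher. Each bound compares the crossbred mean with the lowest signal that counted as well above background on the Tharparkar arrays. The adjusted p-values from limma, 6.61e-05 and 0.000121, belong to the fitted log2 differences of 6.18 and 3.92 and not to the bounds. Those fits use Tharparkar signals that were not well above background. Lame was 4.82-fold lower than normal crossbred (log2 fold change -2.27, SE 0.23, 95% interval -2.80 to -1.73, adjusted p = 0.0018). Both lame RNA samples lay far below normal crossbred, with means of -2.58 for lame R1 and -2.42 for lame R2.

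The call between lame and normal crossbred rests on this probe and on counting arrays as observations. With duplicates averaged the adjusted p was 0.0615 at the same fold change, and with the mean of both probes it was 0.109 at a log2 fold change of -1.71. With normexp correction the fitted log2 difference was 1.41 for normal crossbred against Tharparkar (adjusted p = 0.018). For lame against Tharparkar it was -0.09 (adjusted p = 0.837). Neither reaches the bound given above, so the bounds hold only for the main processing. The second probe of S100A14, A_73_P306306, was dimmer still. Its levels were -5.09 and -5.39 on the lame R1 arrays, -4.13 and -1.62 on the lame R2 arrays, -3.01 and -2.82 in normal crossbred cows and -6.65 and -6.40 in normal Tharparkar cows. It was well above background on both lame R2 arrays and both normal crossbred arrays only, and its lame R2 duplicates lay 2.51 apart. It passed the filter through normal crossbred alone and was called in no comparison (adjusted p = 0.512 for lame against normal crossbred, 0.0634 for normal crossbred against Tharparkar and 0.109 for lame against Tharparkar). Normal crossbred was at least 2.61-fold higher than Tharparkar on it, and no fold is given for the lame group. Because this probe was kept for its normal crossbred signal, that bound is no separate support for the brighter probe.

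**Figure D1:**
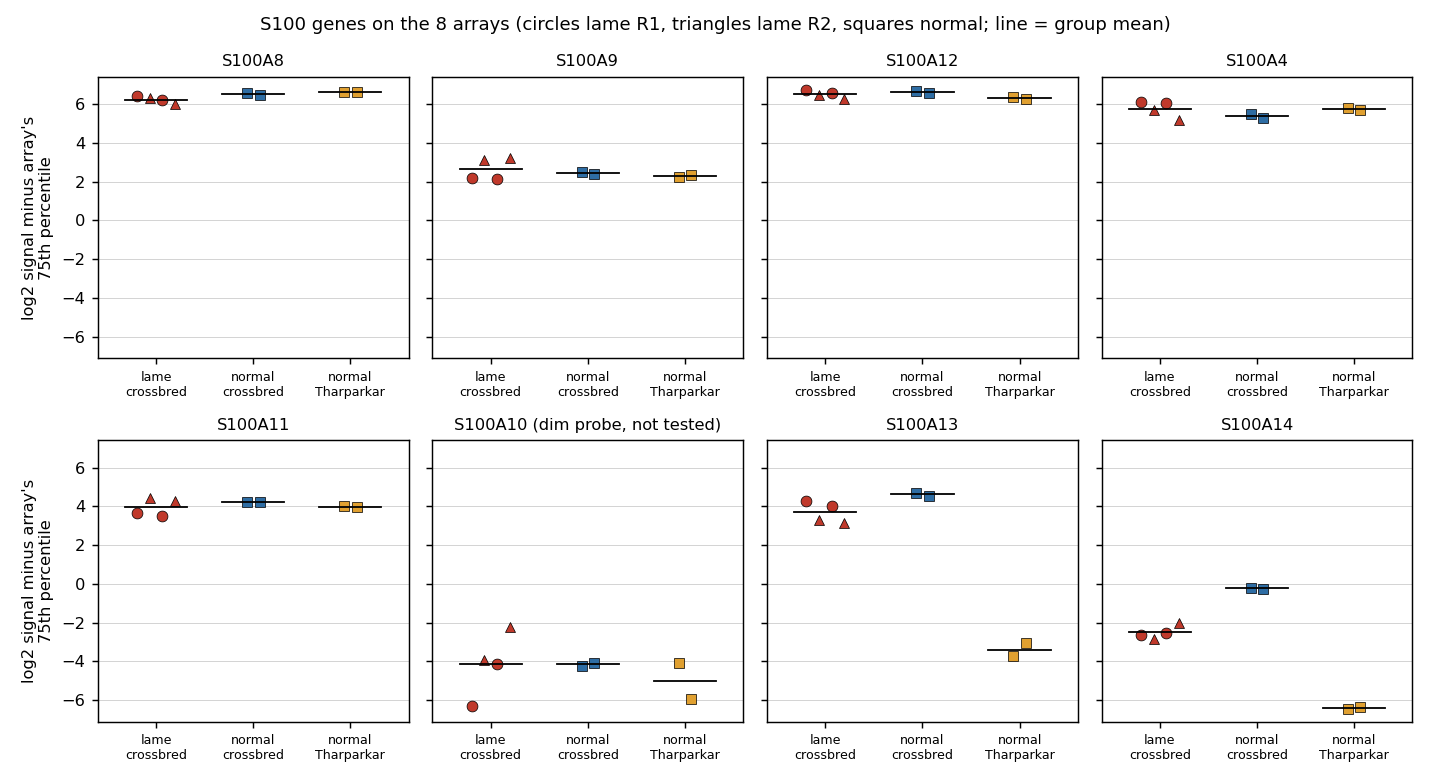
Level of each S100 gene (log2 signal relative to the array's 75th percentile, y axis) on every array, by group (x axis), with the group mean as a line; each panel shows the representing probe, and S100A10 its single probe. The Tharparkar arrays of S100A13 sit at -3.73 and -3.06 against 3.12 to 4.70 on the crossbred arrays, whereas S100A8 spans 5.99 to 6.63 over all 8 arrays.

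Against Tharparkar, the tested genes on either side of this pair had smaller fold changes than S100A13. In the order of ARS-UCD2.0, S100A13 and S100A14 are flanked by SNAPIN, CHTOP and S100A1 on one side and by S100A16 and S100A2 on the other, with the noncoding LOC132344835 and S100A3 not tested. S100A1, which in muscle modulates calcium handling, was the one neighbour called. It was 2.25-fold higher in normal crossbred than in normal Tharparkar (log2 fold change 1.17, SE 0.22, adjusted p = 0.0109) and 3.68-fold higher in lame crossbred than in normal Tharparkar (1.88, SE 0.19, adjusted p = 0.000879). Between lame and normal crossbred it had a fold change of 0.71 (adjusted p = 0.0583), opposite in sign to those of S100A13 and S100A14. SNAPIN, a SNARE-associated protein, had log2 fold changes between -0.50 and -0.09 in the 3 comparisons, and CHTOP, a chromatin and messenger RNA export factor, between -0.38 and 0.08. S100A16 lay between 0.01 and 0.22, and S100A2 at 1.29, -1.44 and -0.15 in the order lame against normal crossbred, normal crossbred against Tharparkar and lame against Tharparkar. None of these 4 genes was called in any comparison.

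**Figure D2:**
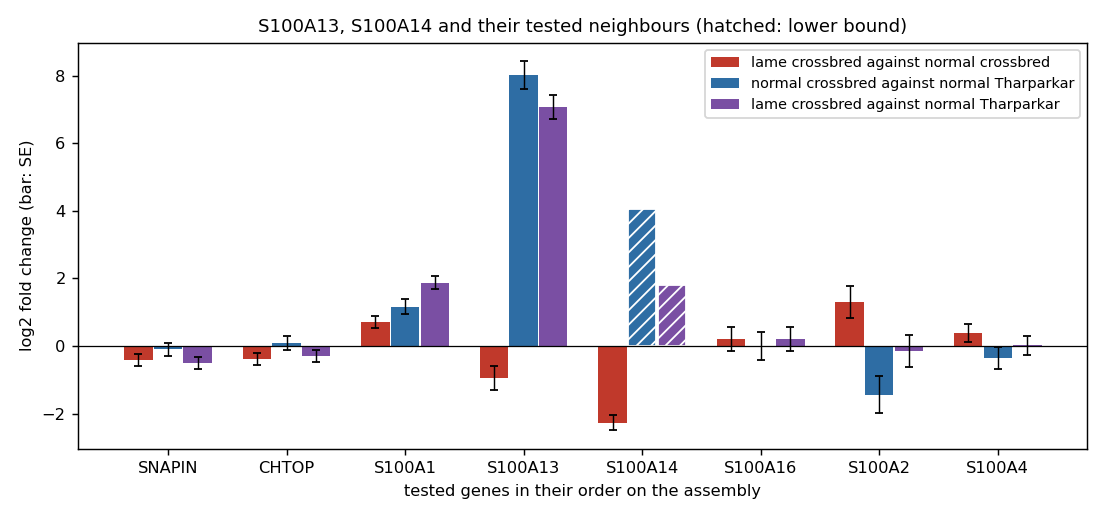
Log2 fold changes (y axis, error bars are SE) of the tested genes around S100A13 and S100A14 in their order on the assembly (x axis), ending with S100A4, in the 3 comparisons. The bars of S100A13 against Tharparkar reach 8.02 for normal crossbred and 7.08 for lame crossbred. The hatched bars of S100A14 against Tharparkar are lower bounds, 4.07 and 1.80, with no error bar, and all bars of the other genes lie between -1.44 and 1.88.

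S100A12, also called calgranulin C, gave different answers from its 3 probes. The probe with the highest mean, A_73_115208, had levels of 6.74 and 6.58 on the lame R1 arrays, 6.48 and 6.25 on those of lame R2, 6.66 and 6.59 in normal crossbred cows and 6.38 and 6.24 in normal Tharparkar cows. These values lie within 0.49 of each other, and the probe was not called in any comparison. The probe A_73_P247181 had levels of 5.47 and 5.42 on the lame R1 arrays, 5.48 and 5.33 on those of lame R2, 5.49 and 5.57 in normal crossbred cows and 3.02 and 2.95 in normal Tharparkar cows. The probe A_73_P050466 had levels of 4.03 and 3.99 on the lame R1 arrays, 3.52 and 3.40 on those of lame R2, 3.78 and 3.67 in normal crossbred cows and 1.41 and 1.44 in normal Tharparkar cows. On both of these probes the 2 Tharparkar arrays were well below all 6 crossbred arrays, and all 3 probes were well above background on all 8 arrays.

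Tested over all 24641 kept probes, A_73_P247181 was 5.83-fold higher in normal crossbred than in normal Tharparkar (log2 fold change 2.54, SE 0.15, adjusted p = 0.000267) and 5.43-fold higher in lame crossbred (2.44, SE 0.13, adjusted p = 0.000142). A_73_P050466 was 4.93-fold higher in normal crossbred (2.30, SE 0.25, adjusted p = 0.00204) and 4.96-fold higher in lame crossbred (2.31, SE 0.22, adjusted p = 0.000944). The same contrasts of A_73_115208 were 0.31 (adjusted p = 0.318) and 0.20 (adjusted p = 0.443). With duplicates averaged, the calls of the lower probes between normal crossbred and Tharparkar were lost (adjusted p = 0.076 and 0.151) and those between lame and Tharparkar kept (adjusted p = 0.0235 and 0.0391). Between lame and normal crossbred the 3 probes gave log2 fold changes of -0.11, -0.10 and 0.01, none of them called, with 95% intervals that reach at most from -0.52 to 0.52. All 3 probes carry the same transcript accession. Where each lies in the transcript was not analysed here, and whether a sequence difference between the breeds touches a probe was not tested.

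**Figure D3:**
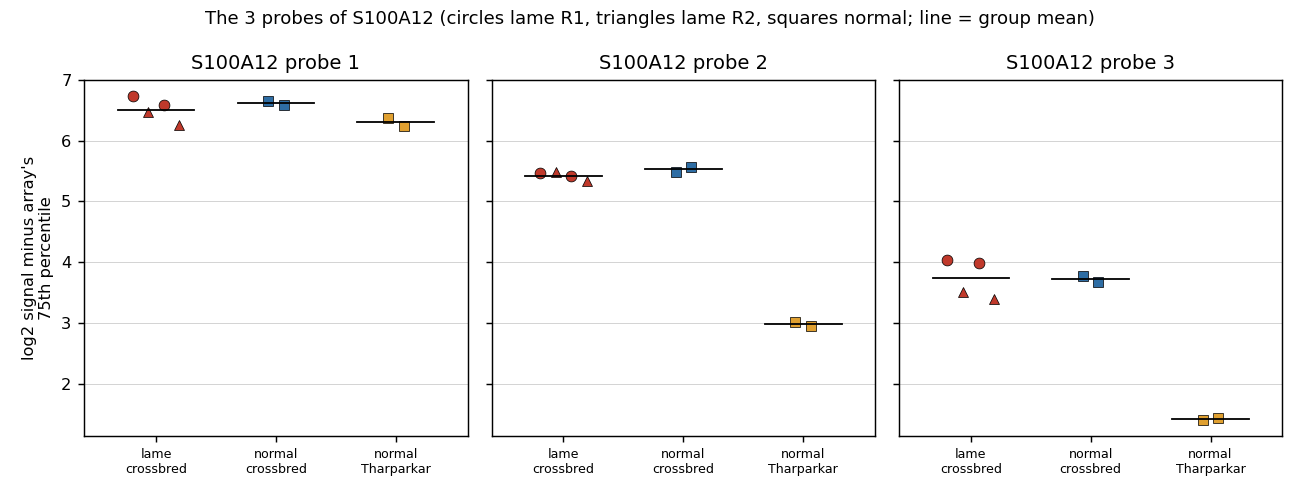
Level on each array (log2 signal relative to the array's 75th percentile, y axis) of the 3 S100A12 probes, by group (x axis); probes 1, 2 and 3 are A_73_115208, A_73_P247181 and A_73_P050466, and lines are group means. Probe 1 spans 6.24 to 6.74 over all arrays, whereas the Tharparkar arrays of probe 2 sit at 3.02 and 2.95 and those of probe 3 at 1.41 and 1.44.

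Of the calprotectin genes, S100A8 changed little by comparison, whereas S100A9 differed between the lame RNA samples. S100A8 had levels of 6.41 and 6.20 on the lame R1 arrays, 6.32 and 5.99 on those of lame R2, 6.57 and 6.47 in normal crossbred cows and 6.63 and 6.62 in normal Tharparkar cows. All 4 lame arrays were below all 4 normal arrays, by a small amount. Its processed signal was between 20570 and 25000 on every array, and 0 noncontrol spots were marked as saturated. Before scaling, the signal was 22080 to 25000 on lame arrays and 21330 and 20570 on Tharparkar arrays, so the order of these 2 groups depends on the scaling. It was 23810 and 22340 on normal crossbred arrays, within the lame range. The log2 fold change was -0.29 for lame against normal crossbred (95% interval -0.66 to 0.08, adjusted p = 0.297), -0.10 for normal crossbred against Tharparkar (-0.53 to 0.32, adjusted p = 0.738) and -0.40 for lame against Tharparkar (-0.77 to -0.03, adjusted p = 0.112). None was called.

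S100A9, the partner of S100A8, split the lame group by RNA sample. Its levels were 2.17 and 2.11 on the lame R1 arrays, 3.09 and 3.23 on those of lame R2, 2.52 and 2.39 in normal crossbred cows and 2.24 and 2.32 in normal Tharparkar cows. Lame R2 was above and lame R1 below all 4 normal arrays. The gap between lame R2 and lame R1 was 1.02, while the duplicates of either sample lay within 0.14 of each other. The pooled fold change against normal crossbred was 0.20 with an interval of -0.62 to 1.02 (adjusted p = 0.777). With only 1 lame RNA sample in the lame group, lame R1 gave -0.31 against normal crossbred (adjusted p = 0.0339) and lame R2 gave 0.71 (adjusted p = 0.00659). In those refits the residual spread is between duplicates only, and 7162 and 6993 of all genes were called. S100A9 had log2 fold changes of 0.17 for normal crossbred against Tharparkar (-0.78 to 1.11, adjusted p = 0.815) and 0.37 for lame against Tharparkar (-0.45 to 1.19, adjusted p = 0.483).

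S100A4, which binds nonmuscle myosin heavy chain MYH9 and is secreted by activated leukocytes and fibroblasts, was read by 2 probes. The brighter, A_73_118905, had levels of 6.13 and 6.07 on the lame R1 arrays, 5.70 and 5.18 on those of lame R2, 5.50 and 5.27 in normal crossbred cows and 5.79 and 5.70 in normal Tharparkar cows. Lame R1 was above every other array, and lame R2 overlapped normal crossbred and lay below both Tharparkar arrays. The gap between lame R2 and lame R1 was -0.66 on this probe and -0.68 on the other, A_73_P092371. The order of the groups differed on that other probe, where every lame array was above every normal array. Its levels were 4.99 and 4.63 on the lame R1 arrays and 4.13 on both lame R2 arrays. They were 3.97 and 3.69 in normal crossbred cows and 3.95 and 4.06 in normal Tharparkar cows. Against normal crossbred the brighter probe gave 0.38 (-0.26 to 1.03, adjusted p = 0.435) and the other, tested over all kept probes, 0.64 (0.01 to 1.28, adjusted p = 0.202). With lame R1 alone the brighter probe gave 0.72 and with lame R2 alone 0.05, in refits whose residual spread is between duplicates only. On the brighter probe, normal crossbred against Tharparkar gave -0.36 (-1.11 to 0.38, adjusted p = 0.481) and lame against Tharparkar 0.02 (-0.62 to 0.67, adjusted p = 0.959). The other probe gave -0.18 and 0.46 in these comparisons, neither called.

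S100A11, a partner of annexin A1, and S100A10, the partner of annexin A2 that has lost calcium binding, complete the list. The S100A11 probe with the highest mean, A_73_P040776, had levels of 3.63 and 3.50 on the lame R1 arrays, 4.42 and 4.29 on those of lame R2, 4.24 and 4.20 in normal crossbred cows and 4.00 and 3.95 in normal Tharparkar cows. As with S100A9, lame R1 was the lowest and lame R2 the highest sample, 0.79 apart. Its other probes did not show this split, with gaps between lame R2 and lame R1 of 0.10 and -0.21. Against normal crossbred the 3 probes gave -0.26, -0.06 and 0.29, so that they differed in sign, and none was called (adjusted p = 0.621 for the first, 95% interval -0.92 to 0.40). Normal crossbred against Tharparkar gave 0.25 (-0.51 to 1.01, adjusted p = 0.643) and lame against Tharparkar -0.01 (-0.67 to 0.65, adjusted p = 0.981).

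The single probe of S100A10 was near background. It was well above background on 3 of 4 lame arrays, on 1 of 2 normal crossbred arrays and on 0 of 2 Tharparkar arrays. Its levels were -6.31 and -4.13 on the lame R1 arrays, -3.93 and -2.21 on those of lame R2, -4.22 and -4.08 in normal crossbred cows and -4.08 and -5.95 in normal Tharparkar cows. Duplicates of the same lame RNA lay 2.18 and 1.72 apart, so no order can be read from them. ANXA2, its partner gene, was 1.42-fold lower in lame crossbred than in Tharparkar (-0.51, SE 0.13, adjusted p = 0.0331).

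Counted together, 1 of the 7 tested genes, S100A14, was called between lame and normal crossbred, as lower, where 9.62% of all tested genes were called, 3.29% as higher and 6.33% as lower. Between normal crossbred and Tharparkar 2 of 7, S100A13 and S100A14, were called, both as higher, against 18.7% of all genes, 11.8% as higher and 6.89% as lower. Between lame crossbred and Tharparkar the same 2 genes were called as higher, against 23.3% of all genes, 12.6% as higher and 10.7% as lower. Counts out of 7 genes are too small to be read against these shares. The median log2 fold change of the 7 genes was -0.26, 0.25 and 0.20 in these 3 comparisons, beside -0.04, 0.01 and -0.01 over all genes. The comparisons share arrays: the normal crossbred arrays serve in both comparisons of normal crossbred cows, and the Tharparkar arrays in both comparisons with that breed. In all 3 comparisons, the same genes were called when any single array was left out. Each slide held arrays of all 3 groups, and within slide 1 and slide 2 the log2 fold changes of S100A13 were 8.43 and 7.60 for normal crossbred against Tharparkar, and 7.53 and 6.63 for lame against Tharparkar. Those of S100A14 were -2.52 and -2.01 for lame against normal crossbred. Either slide carries 1 duplicate of each RNA sample.

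**Figure D4:**
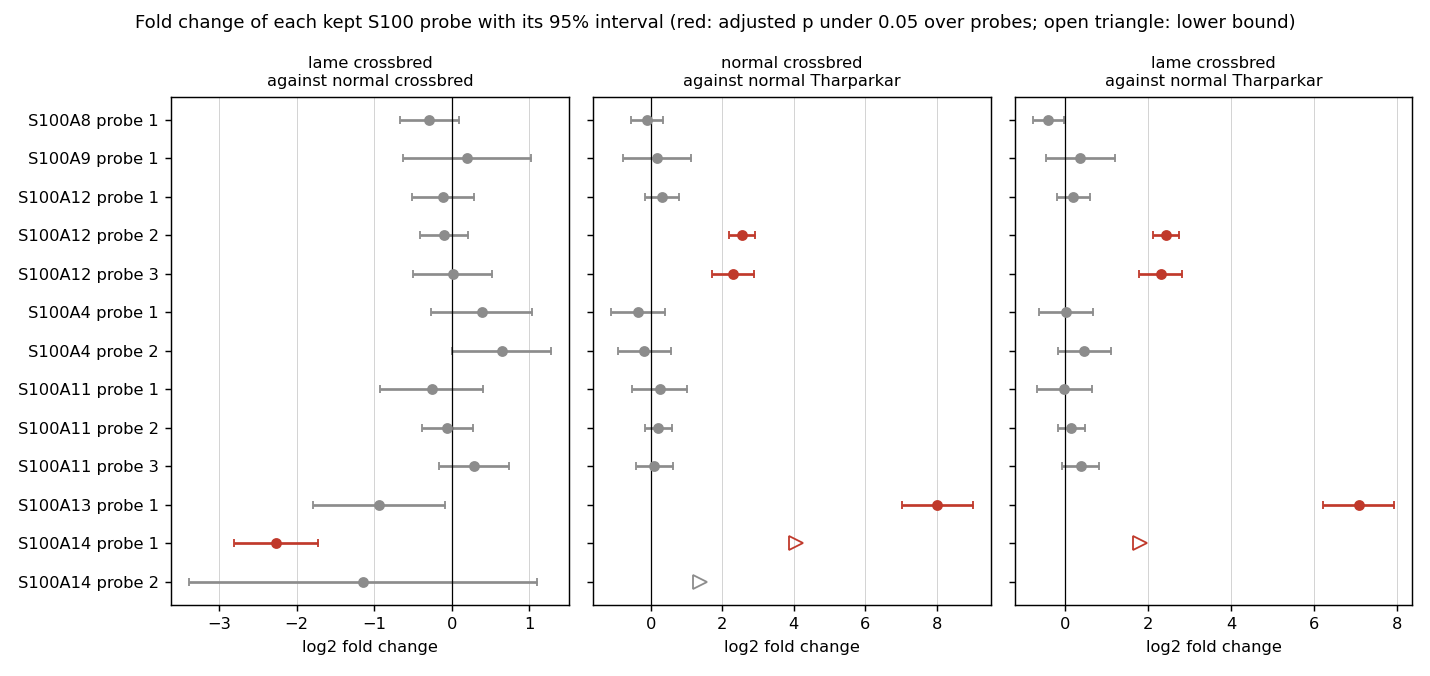
Log2 fold change (x axis) with its 95% interval for each kept S100 probe (y axis, probes of a gene numbered by falling mean level) in the 3 comparisons, from the limma fit over 24641 probes; red marks an adjusted p under 0.05. Red are S100A14 probe 1 in all 3 panels and, against Tharparkar, S100A13 and the S100A12 probes 2 and 3 as well. Open triangles are lower bounds, drawn for S100A14, whose probes were well above background on no Tharparkar array, and the lame value of S100A14 probe 2 against Tharparkar has none. The x scales differ between panels.

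In the list of receptors of extracellular S100 proteins and their signalling genes, 4 of 8 measured genes were lower and 0 higher in lame than in normal crossbred cells. Over all tested genes, 6.33% were called lower and 3.29% higher in that comparison. The list, which includes the signalling genes MYD88 and NLRP3, had a median log2 fold change of -0.71. TLR4, the receptor of calprotectin, was 3.28-fold lower (-1.71, SE 0.35, adjusted p = 0.0262) and its co-receptor CD14 was 2.94-fold lower (-1.56, SE 0.31, adjusted p = 0.0229). CD69, reported as a human receptor for S100A8 with S100A9, fell by 1.04 and AGER, the receptor of S100A12, by 1.00. Against Tharparkar, lame cells were lower in TLR4 (-2.48), CD14 (-1.62), CD69 (-1.27) and BSG (-0.72), the last a further S100A9 receptor, with a list median of -0.70. Between normal crossbred and Tharparkar 1 of 8, AGER, was called, as higher (1.19, SE 0.20, adjusted p = 0.0079), with a list median of -0.14. Over all tested genes, 11.8% were called higher and 6.89% lower there, and for lame against Tharparkar 12.6% higher and 10.7% lower. These shares also belong beside the counts of the lists below.

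Of 9 measured annexins and other intracellular or export partners, 1 was called between lame and normal crossbred: IL1A, an export cargo of S100A13, fell by 4.03 on the log2 scale (SE 0.48, adjusted p = 0.0036). The list median was -0.18, but -0.06 without lame R2_2 and 0.11 with lame R1 only. Between normal crossbred and Tharparkar 0 of 9 were called by limma (median -0.07). Between lame crossbred and Tharparkar, IL1A (-4.60) and ANXA2 (-0.51) were lower, and FGF1, another S100A13 cargo, was called higher (adjusted p = 0.0349). FGF1 was well above background on all 4 lame arrays and on no normal crossbred or Tharparkar array, so it passed the filter through the lame group alone. Its adjusted p belongs to a fit that uses those dim signals, and only a bound of at least 1.80-fold is given. The list median was 0.02, and -0.11 without lame R2_2. Among the 6 subunits of the phagocyte NADPH oxidase, to which calprotectin delivers arachidonic acid, NCF1 was lower in lame than in normal crossbred cells (-1.19, SE 0.16, adjusted p = 0.00581), and the median was -0.10 (0.01 with lame R1 only). CYBA was lower in normal crossbred than in Tharparkar (-0.75, adjusted p = 0.0284; median -0.69). Both NCF1 (-1.30) and CYBA (-1.01) were lower in lame crossbred than in Tharparkar (median -0.66).

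Markers of the cells that carry S100 proteins differed strongly between the same arrays. Of 16 measured neutrophil markers, 8 were lower and 0 higher in lame than in normal crossbred cells, with a median of -1.69; they included the chemokine receptors CXCR1 (-3.82) and CXCR2 (-3.33), the transglutaminase TGM3 (-2.96), the vitamin B12 carrier TCN1 (-2.31), myeloperoxidase MPO (-1.70) and the cathelicidin CATHL1, which was well above background on none of the lame arrays and on 1 of the 2 normal crossbred arrays. CXCR2 was well above background on the lame R1 arrays but not on those of lame R2. The log2 of the summed signal of the list was 2.85 to 3.59 on lame arrays, 5.46 to 5.51 on normal crossbred arrays and 6.28 to 6.33 on Tharparkar arrays, and it averaged 2.96 for lame R1 and 3.57 for lame R2. The defining marker CXCR1 was well above background on all 8 arrays; CSF3R was not analysed here. Against Tharparkar 10 markers were lower in lame cells (median -2.14). Among them, CATHL1, CATHL3 and CATHL4 were well above background on both Tharparkar arrays, 1 of 2 normal crossbred arrays and none of the lame arrays. They passed the filter through Tharparkar alone, and their calls use lame signals that were not well above background. Normal crossbred cells were lower than Tharparkar in CXCR2 (-2.21) and TGM3 (-0.96) and higher in MPO (2.07), with a median of -0.64.

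**Figure D5:**
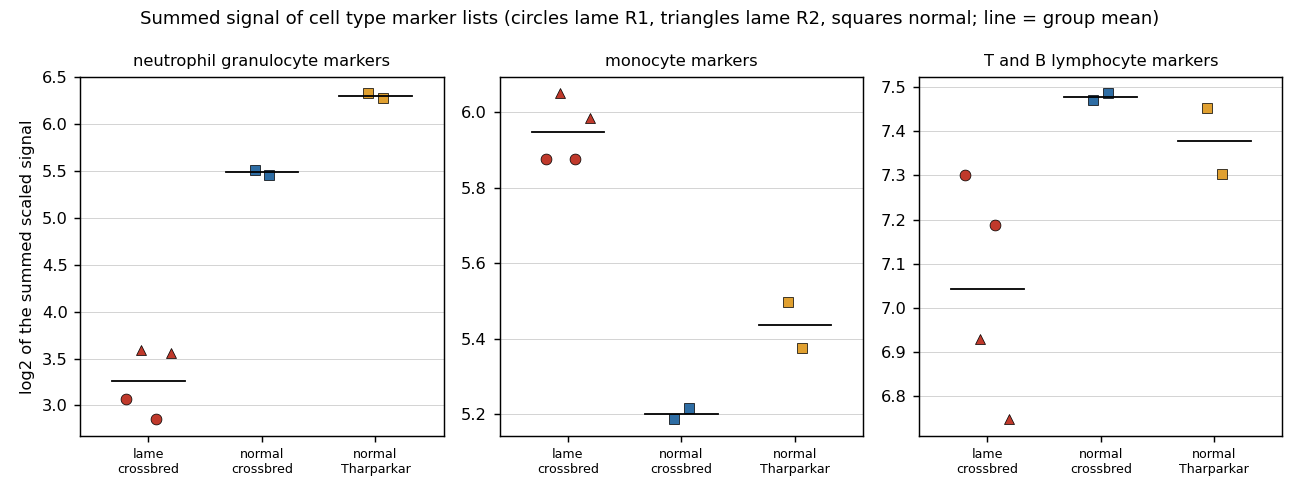
Log2 of the summed scaled signal (y axis) of the neutrophil, monocyte and T and B lymphocyte marker lists on each array, by group (x axis), with group means as lines; the y scales differ between panels. The neutrophil sum lies at 2.85 to 3.59 on lame arrays, below 5.46 to 5.51 on normal crossbred and 6.28 to 6.33 on Tharparkar arrays, while the monocyte sum is highest on lame arrays.

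Of 11 monocyte markers, 4 were higher in lame than in normal crossbred cells, C1QB (1.55), C1QC (1.38), C1QA (1.32) and CSF1R (1.00), and CD14 was lower (-1.56), with a median of 0.77. The summed monocyte signal was 5.87 to 6.05 on lame arrays, 5.19 to 5.22 on normal crossbred arrays and 5.37 to 5.50 on Tharparkar arrays. Lame cells were higher than Tharparkar in 4 markers, C1QB, CSF1R, C1QA and LGALS3, and lower in 1, CD14 (median 0.51). C1QC was not called there (limma adjusted p = 0.0525). Normal crossbred cells were higher than Tharparkar in 1 marker, LGALS3, and lower in 2, C1QA and C1QB (median -0.20). Of 10 T and B lymphocyte markers, 4 were lower in lame than in normal crossbred cells, among them CD8A (-1.38) and CD3G (-1.01), with a median of -0.50, and 6 were higher in normal crossbred than in Tharparkar (median 0.88). Against Tharparkar 1, MS4A1, was lower in lame cells (-0.93, median 0.23). The lymphocyte sums were 6.75 to 7.30, 7.47 to 7.49 and 7.30 to 7.45 on lame, normal crossbred and Tharparkar arrays, and CD14, CD3E and CD79A were well above background on all 8 arrays. The probes representing S100A8, S100A9 and S100A12 were not called in the comparisons in which these neutrophil markers were lower. S100A8 was nevertheless below every normal array on all lame arrays. Tested over all kept probes, the dimmer S100A12 probes were called higher in lame crossbred than in Tharparkar (2.44 and 2.31). The part of cell composition in the S100 values was not tested.

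Epithelial markers were measured beside S100A14, which epithelia express. EPCAM was called lower in lame than in normal crossbred cells (adjusted p = 0.00165), although 2 of 4 lame arrays, R1_1 and R2_2, were not well above background, and LSR was lower too (-2.81, SE 0.24, adjusted p = 0.00103), 2 of 5 measured genes of the list. The list median was 0.09, but -0.15 without lame R2_2, 0.43 with lame R1 only and -0.87 with lame R2 only. LSR was higher in normal crossbred than in Tharparkar (4.06, SE 0.27, adjusted p = 0.000284), on 1 of whose 2 arrays it was well above background, and there the list median was -0.23. In lame cells against Tharparkar LSR was higher (1.25) and EPCAM lower (adjusted p = 0.00511), with a median of -0.14 (0.20 with lame R1 only). The summed signal of the list was -0.26 to 2.34 on lame arrays, 1.52 to 1.61 on normal crossbred arrays and 2.58 to 2.64 on Tharparkar arrays. EPCAM was well above background on 6 of 8 arrays, and KRT1, KRT5, KRT10, KRT18, CDH1, DSP, DSG1 and DSG3 did not enter the test. The part of epithelial cells in the S100A14 values was not tested.

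The genes whose levels followed each member most closely over the 8 arrays were found by Pearson's r and are listed as a description, since the 8 points come from 4 RNA samples. S100A13 was followed by DFFB (0.996), ZNF304 (0.995) and UPK1A (0.994), and S100A14 by SOX4, EID3 and FAM209A (each 0.993). S100A8 was followed by FUOM (0.992), FEM1A (0.979) and SOD1 (0.972), S100A9 by USP46 (0.986), ZDHHC13 (0.977) and CLIC4 (0.973), and S100A12 by CRTAM (0.991), SYS1 (0.986) and TUT7 (0.983). S100A4 was followed by MAP3K1 (0.983) and CC2D1A (0.974), and S100A11 by GOLIM4 (0.994), CAST (0.989) and SLC35A5 (0.987). None of the genes named here belongs to the S100 family or to the gene lists above.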

How the data were processed

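Array values were deposited by the authors as scanner files. Per the file headers, the intensity used (processed signal) was background-subtracted and detrended by Agilent Feature Extraction 12.0.3.1, while version 11.5.1.1 stands in the submitters' processing notes. The authors' deposited log2 table, whose scale and centring are not stated, has column medians of 0.00 for lame R1_1, 0.00 for lame R2_1, -0.07 and -0.12 for normal crossbred, 0.03 and 0.09 for normal Tharparkar, -0.13 for lame R1_2 and 0.88 for lame R2_2. It tracked the values used here after centring each probe, and served as an alternative.

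Here, log2 intensity was averaged over the spots of a probe and scaled by subtracting each array's 75th percentile. Control spots and 56 probes with outlier flags were left out. Probes were kept if all arrays of any 1 group marked them well above background (24641 probes), and a gene was represented by its kept probe with the highest mean. Of the probes, 27054 matched 1 RefSeq gene (ARS-UCD2.0) by accession, 26629 of them with a named symbol, and 16599 kept the file's name. Groups were compared in 1 fit of 3 group means with limma (version 3.58.1, R 4.3.3; lmFit, then eBayes, 2-sided), with 5 residual and 2.34 prior degrees of freedom and Benjamini-Hochberg adjustment over 15127 genes. The code was tested on simulated data. The number of arrays limits the precision.

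A fold bound was given where no array of 1 group, and every array of the other, marked a probe well above background. For those arrays it takes the lowest signal well above background, or the probe's own signal if higher. All 8 genes and their probes are named, as are the called genes of each list (at most 6), the 3 genes most alike each member over the arrays (1 of them is not reported here), and 4 RefSeq neighbours on each side of S100A13 and S100A14. The members, lists and tests were chosen with earlier results of these data known. Alternatives covered scaling, background correction, filters, probe choice, averaged duplicates, array weights, the slide block and left-out arrays. The normexp alternative (offset 50) used median spot and background signals, since mean signals were not analysed here. Title numbers coincide with the slides in the file headers, and deviations from the group means correlated at 0.04 to 0.24 for arrays of the same slide, so the slide block was fitted as a paired alternative.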

Additional observations from a re-analysis of the deposited data

How the results depend on the processing

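The call rule gave 1, 2 and 2 S100 genes for lame against normal crossbred, normal crossbred against Tharparkar and lame against Tharparkar, and the same counts in each of 8 fits that left out 1 array (lowest and highest 1 and 1, 2 and 2, 2 and 2). With the slide as a replicate block the counts were again 1, 2 and 2 (S100A14 between lame and normal crossbred, adjusted p = 0.00539), and the block changed no member's call. With probes well above background on all 8 arrays only, the counts were 0, 1 and 1, because S100A14 left the test. Lame against normal crossbred gave 0 with a gene's probes averaged and 0 with duplicates averaged, a fit with 4 observations and 1 residual degree of freedom. Lame against Tharparkar gave 1 with normexp correction. Lame R1 arrays only gave 4, 5 and 6, and lame R2 arrays only 3 and 5 for the comparisons with lame cows. Array weights, which weighted the lame R2 arrays at 0.113 and 0.0797 and the others at 1.42 to 2.75, gave 3, 4 and 5. In these settings the residual spread is that of duplicates alone or nearly so. The calls over all 15127 genes rose as well, to the totals given below. These counts are therefore not read as a result about the S100 genes. S100A13 was called against Tharparkar in every one of its alternatives, at 5.61 to 8.36 for normal crossbred and 4.68 to 7.54 for lame crossbred. S100A14 was called in 20 of 20 for normal crossbred against Tharparkar (1.41 to 6.23) and 19 of 20 for lame against Tharparkar (-0.09 to 4.05). Between lame and normal crossbred it was called in 18 of 20 (-2.54 to -1.50). With the mean of its probes S100A12 was called for normal crossbred (1.72, adjusted p = 0.00136) and lame crossbred (1.65, adjusted p = 0.000769) against Tharparkar. Its dimmer probes, refitted as alternatives chosen after the data were seen, were called against Tharparkar in 18 of 19 settings for normal crossbred and 19 of 19 for lame crossbred.

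In 28 cases a fold change took the other sign, and in 1 of them the original had been called: S100A14 for lame against Tharparkar, with a fitted -0.091 under normexp. The other originals were not called. The causes were not tested. For lame against Tharparkar S100A11 gave 0.28 (quantile), 0.12 (percentile over probes detected on all arrays), 0.18 (normexp), 0.17 (mean of probes), 0.38 (lame R2 only, adjusted p = 0.017) and -0.16 to 0.14 with 1 array left out. S100A4 gave -0.31 (lame R2 only) and -0.10 to 0.22 with 1 array left out, and S100A9 -0.14 (lame R1 only) and -0.093 (array weights). For lame against normal crossbred S100A9 gave -0.31 (adjusted p = 0.0339) and -0.26 in those same settings, S100A12 0.032 and 0.0053, and S100A11 0.13 (lame R2 only). A_73_P247181 of S100A12 gave 0.026 (quantile) and 0.0076 (percentile over probes detected on all arrays), and A_73_P050466 -0.27 (lame R2 only) and -0.090 to 0.12 with 1 array left out. S100A8 for normal crossbred against Tharparkar gave 0.087 (quantile) and 0.13 (normexp).

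Over all genes, the calls numbered 1455, 2831 and 3528 in the 3 comparisons. They were 641 (138 higher, 503 lower), 1312 and 2019 (733 higher, 1286 lower) with normexp, 356, 999 and 1351 without the filter on dim probes, 167, 375 and 532 with duplicates averaged, 7162, 8748 and 8378 with lame R1 only, 6993, 7151 and 8785 with lame R2 only, and 7306, 9434 and 8471 with array weights. Each probe on its own gave 4356 and 5327 in the comparisons with Tharparkar, and leaving out 1 array 179 to 1812, 715 to 3969 and 849 to 3914. The all-gene median moved past 0.1 with the other percentile (0.13, lame against Tharparkar), normexp (-0.10 and -0.16 against Tharparkar), no filter (0.31, -0.21 and 0.22) and lame R2 only (-0.16, lame against normal crossbred). Signal over background limits S100A14 on Tharparkar arrays and S100A10 throughout.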

Other observations

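S100 genes outside the 8 described above were measured on the same arrays, 6 of 12 listed genes passing the filter, with 0 called between lame and normal crossbred (limma) and 1, S100A1, called against Tharparkar in both comparisons. The list's median log2 fold change was 0.64 for lame against normal crossbred, 0.14 for normal crossbred against Tharparkar and 0.11 for lame against Tharparkar (-0.13 without lame R2_2). S100A7, known from inflamed skin as psoriasin, was raised on the lame R2 arrays. Its brighter probe had levels of -0.97 and -0.91 on the lame R1 arrays, 1.08 and 0.98 on those of lame R2, -1.29 and -1.27 in normal crossbred cows and -1.46 and -1.65 in normal Tharparkar cows. Both lame R2 arrays were above all others, which lay within 0.74 of each other, and the second probe showed the same order. The fold changes of 1.33 against normal crossbred (adjusted p = 0.247) and 1.60 against Tharparkar (adjusted p = 0.114) were not called.

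S100A2 had levels of -2.88 and -2.80 on the lame R1 arrays, -1.22 and -1.67 on those of lame R2, -3.39 and -3.47 in normal crossbred cows and -1.986 and -2.002 in normal Tharparkar cows. All 4 lame arrays were above both normal crossbred arrays, and lame R2 was again the higher lame sample, but the fold change of 1.29 was not called (adjusted p = 0.138). S100A5 had a fold change of 0.57 between lame and normal crossbred (adjusted p = 0.346) and S100B one of -0.69 (adjusted p = 0.193). S100A3, S100G and S100Z had probes that did not pass the filter.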
